A study of Mus musculus with 4 samples.

Results

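The mitochondrial ribosomal protein genes are the protein-coding genes whose mouse symbol is Mrpl (large subunit) or Mrps (small subunit) followed by a digit. They were taken by symbol alone, after the Ensembl gene IDs of the deposited table were matched to the mouse GENCODE annotation M21. The table holds 69 of them among 24768 gene rows, 41 Mrpl and 28 Mrps. The annotation has 78 such genes, and the 9 others (Mrpl9, Mrpl28, Mrpl41, Mrpl43, Mrpl46, Mrpl48, Mrpl50, Mrpl53 and Mrps12) are not analysed here. RNA sequencing compared mouse cDNT cells labelled WT with cDNT cells labelled Tbx21-KO, with 2 libraries in each group. The series concerns double-negative T cells, which lack the CD4 and CD8 coreceptors, and the labels give no meaning for the "c". Tbx21 encodes T-bet, a T-box transcription factor that drives type 1 responses of lymphocytes, and the question is what its loss does to the RNA of these cells. All libraries carry the cell type label T cells and no treatment, time, strain or animal age. The series text speaks of a knockdown where the labels say knockout, and the sources used here do not describe the allele.

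The mitochondrial ribosome sits in the mitochondrial matrix and makes the few proteins encoded by mitochondrial DNA, which are core subunits of the respiratory chain and of ATP synthase. Its ribosomal RNA is transcribed from mitochondrial DNA, but all of its proteins are encoded in the nucleus, made in the cytosol and imported. The large subunit joins amino acids and releases the chain through an exit tunnel near the inner membrane, and the small subunit binds and decodes the mRNA. Activated T cells are known to expand their mitochondria and to need mitochondrial translation for proliferation and effector function.

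The levels are FPKM values computed by the authors, which scale the fragments read from a gene to its exon length and to the depth of the library. Of the low values (under 20 reads), 96.8% to 97.3% per library were whole multiples of 1 read within 0.1 read, which puts the counted reads of a library between 23319987 and 24958715. The level of Tbx21 was 13.2 (WT 1), 11.7 (WT 2), 2.29 (Tbx21-KO 1) and 2.41 FPKM (Tbx21-KO 2). On the log2 scale it fell by 2.01 (limma adjusted p = 8.21e-05). Each fold change subtracts the WT mean from the Tbx21-KO mean of log2(FPKM + 1), which understates the change of low genes, and a gene is called higher or lower at an adjusted p under 0.05. The labels do not tie the libraries to separate cultures or animals, and the p-values then reflect only how far these 4 libraries spread. The Tbx21-KO libraries held far more RNA of myeloid marker genes: all 13 granulocyte and mast cell markers were higher, with summed levels of 9.09 and 11.5 FPKM in WT against 10753 and 11060 FPKM in Tbx21-KO. All 5 macrophage and monocyte markers tested were higher. The 7 with values summed to 15.5 and 18.5 FPKM in WT, against 262 and 283 FPKM in Tbx21-KO. Of 6 dendritic cell markers tested, 4 were higher, and the 8 with values summed to 34.4 and 37.3 against 106 and 112 FPKM. Of 9 T cell markers, 6 were lower and 1 higher (776 and 782 against 515 and 541 FPKM). The 4 B cell markers summed to 0.523 and 0.460 FPKM in WT and to 1.62 and 1.38 FPKM in Tbx21-KO, and the 4 erythroid markers to at most 0.740 FPKM in a library. Cd4 and Cd8b1 were not called (summed levels 3.68 and 4.77 against 4.95 and 4.91 FPKM). In bulk RNA, fewer cells of a type and less RNA per cell cannot be told apart, and the part of these cells in the results below was not tested.

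With the deposited values, mitochondrial ribosomal protein genes moved little. Of the 69 genes, 68 passed the minimum mean level of 1 FPKM, and 20 of these (29.4%) were called, 6 higher and 14 lower, against 53.1% of all 11013 genes tested (30.1% higher and 23.0% lower). Their median log2 fold change was -0.06, beside 0.04 for all genes tested. The size of the change, regardless of sign, had a median of 0.14 in these genes and 0.26 in all genes. It was under 0.25 in 73.5% of them and in 49.0% of all genes, and it reached 0.5 in 1 of the 68 (1.47%), Mrpl20, against 24.9% of all genes. Single genes nonetheless moved in opposite directions within the same ribosome, from -0.66 (Mrpl20) to 0.43 (Mrpl14). Left without Tbx21-KO 1, 2 genes were called higher and 7 lower, with 37.4% of all genes called. Without Tbx21-KO 2, 2 were called higher and 10 lower, with 38.8% of all genes called. Fitted over all rows without a minimum level, 2 were called higher and 8 lower, with 41.5% of the same 11013 genes called. In that fit Mrpl14, Mrpl22, Mrpl30, Mrpl36, Mrpl51, Mrpl55, Mrps2, Mrps10, Mrps15 and Mrps26 lost their calls.

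The balance of rises and falls depended on what the libraries were scaled to. Each library was rescaled so that 16 genes listed for the T cell receptor complex, its signalling and the cell surface kept their geometric mean. That list includes Ptprc, Cd27 and Thy1, and its own genes then ranged from -0.99 to 0.91, with 7 called higher and 6 lower. With this scaling, 53 of the 68 ribosomal protein genes were called higher (77.9%) and 1 lower, Mrpl20. Of all genes tested, 72.0% were then called higher and 77.1% called in either direction, against 79.4% of these genes, so the smaller share of calls seen with the deposited values was not seen. The median of all genes moved from 0.04 to 0.42 under that scaling and the median of these genes from -0.06 to 0.36. The share of higher calls among all calls was 93.4% over all genes, against 56.7% with the deposited values. The median of the ribosomal protein genes minus that of all genes was -0.10 with the deposited values, -0.07 with the rescaled ones and -0.05 with quantile normalization. Quantile normalization moved the median of all genes to -0.10, with 39.1% of all calls higher. It gave 4 higher (5.88%) and 29 lower (42.6%) members, against 22.1% higher and 34.5% lower of all genes. In either direction, 48.5% of the members and 56.7% of all genes were then called. In the plot of cumulative shares, both subunits spread less than all genes under either scaling.

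**Figure D1:**
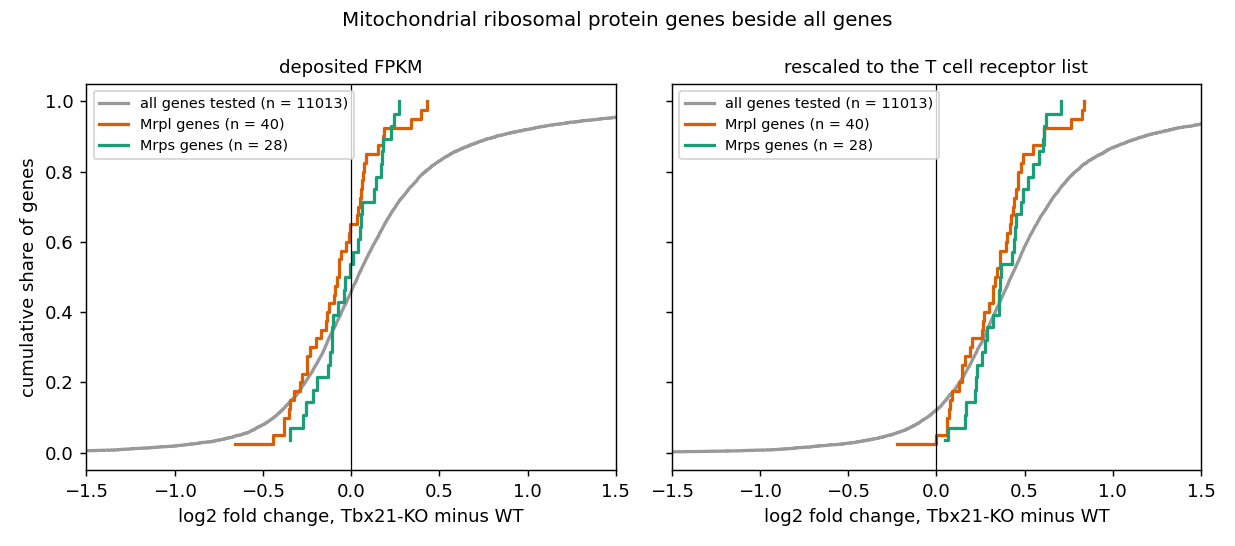
Cumulative share of genes (y axis) by log2 fold change, Tbx21-KO minus WT (x axis), for all 11013 genes tested, 40 Mrpl and 28 Mrps genes, with deposited FPKM (left) and after rescaling to the T cell receptor list (right). Both subunits form steeper curves than all genes, centred just under 0 on the left (medians -0.07 and -0.02) and above 0 on the right (0.34 and 0.36).

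The large subunit had 3 genes called higher (7.5%) and 10 lower (25%) of 40 tested, 32.5% in all. Its median was -0.07 and its range -0.66 to 0.43. The small subunit had 3 called higher (10.7%) and 4 lower (14.3%) of 28, 25% in all. Its median was -0.02 and its range -0.35 to 0.27. With the deposited values, 30.1% of all genes tested were higher and 23.0% lower, so the share of rises lay below that of all genes in both subunits. Some symbols do not match the place of the protein. Mrps30 and Mrps18a are parts of the large subunit, Mrps36 is now known as a subunit of the oxoglutarate dehydrogenase complex, and Gadd45gip1 (large) and Dap3, Ptcd3, Chchd1 and Aurkaip1 (small) are ribosomal proteins with other symbols. Sorted by place, the large subunit had 3 higher and 10 lower of 43 with a median of -0.07, and the small subunit 4 higher and 4 lower of 29 with a median of 0.02. The ratio of summed small to summed large subunit FPKM needs no scaling between libraries. By symbol it was 0.526 and 0.513 in WT and 0.567 and 0.550 in Tbx21-KO, so both Tbx21-KO libraries lay above both WT libraries. By place the ratios were 0.592 and 0.577 in WT and 0.647 and 0.630 in Tbx21-KO. With 2 libraries against 2, an exact two-sided permutation test cannot go below p = 0.333, and no test was run. Behind the ratio, the large subunit summed to 701 and 754 FPKM in WT and 651 and 676 in Tbx21-KO, with no overlap, whereas the small subunit summed to 368 and 387 and to 370 and 372 FPKM, which overlap. Myeloid marker levels moved with these sums as given above, and their part in the ratio was not tested. A sum weighs the genes with the highest levels most, so the ratio does not show a shift shared by a subunit. Among the highest Mrpl genes, Mrpl54, Mrpl40, Mrpl10 and Mrpl20 had WT means of 51.3, 44.1, 36.2 and 37.4 FPKM. Their Tbx21-KO means were 38.9, 33.7, 26.4 and 23.4 FPKM, while Mrpl34 went from 39.7 to 41.0 FPKM. The ratio was not computed without them.

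**Figure D2:**
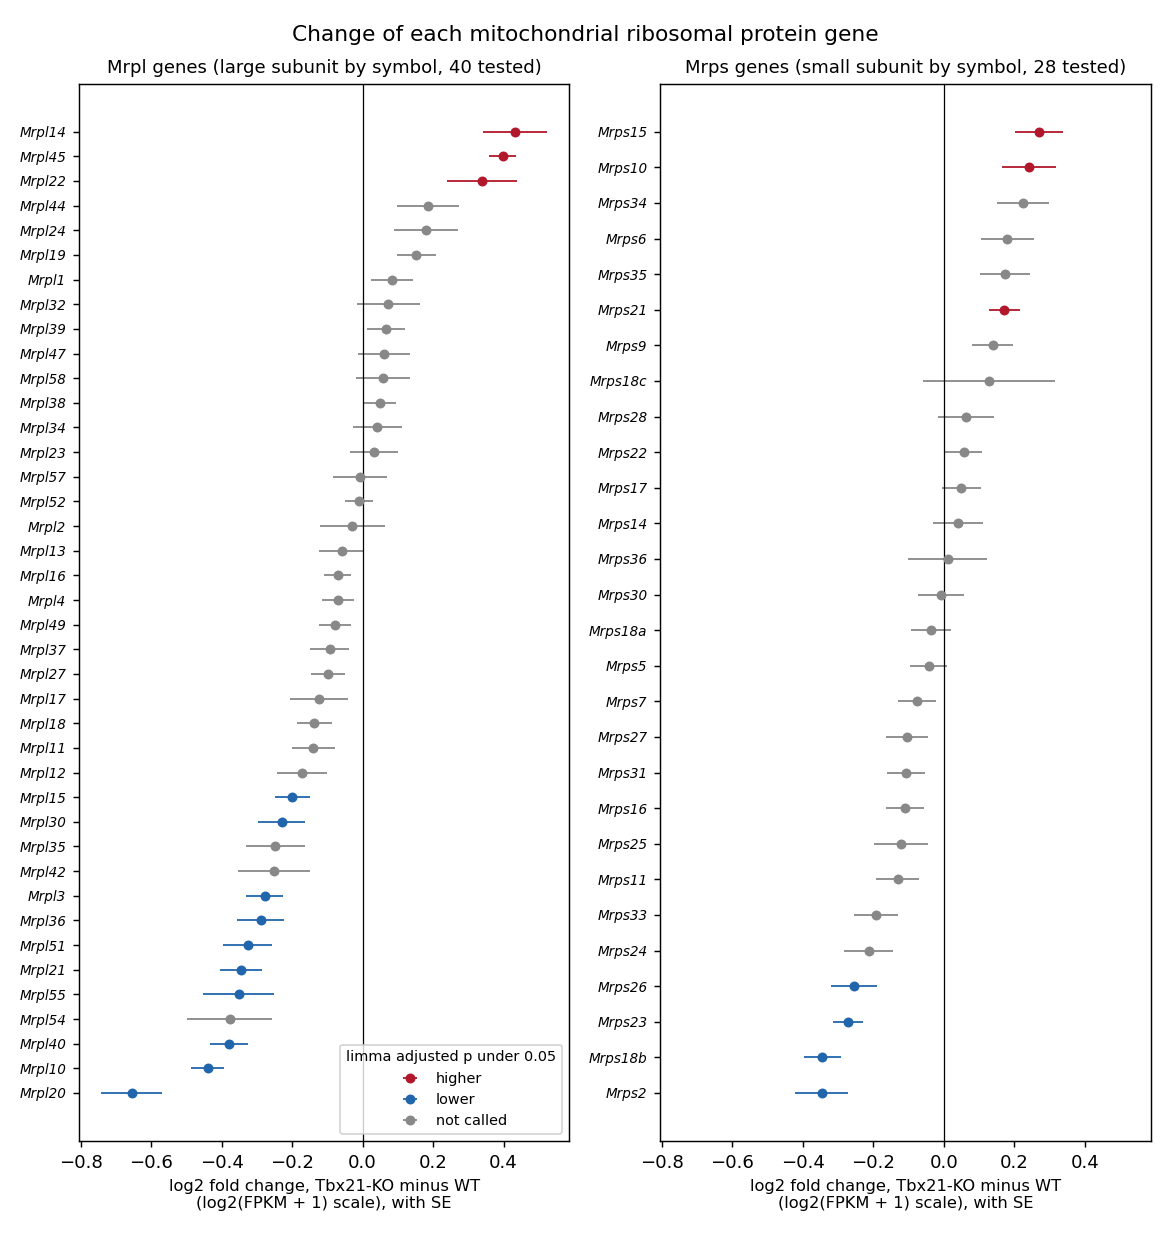
Log2 fold change, Tbx21-KO minus WT, of log2(FPKM + 1) with its standard error (x axis) for each Mrpl gene (left, 40 tested) and each Mrps gene (right, 28 tested), red where called higher and blue where called lower with the deposited values. Mrpl20 lies farthest to the left and Mrpl14 farthest to the right, but rescaled to the T cell receptor list, 53 of the 68 genes were called higher, and of those called lower here only Mrpl20 remained so.

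Promoters of 60 of the 69 genes were matched to RefSeq (build GRCm38.p6, windows of 300 bases, 250 before the RefSeq start and 50 after it). Nuclear genes for mitochondrial proteins are known for short proximal promoters bound by ETS factors such as GABP, by NRF1 and by YY1, so their letters were searched on both strands. The ETS letters CCGGAAG were in 21 of 60 promoters (35%), against 20.7% of the promoters of genes tested and 12.3% of all 16521 promoters. The NRF1 letters CATGCGC were in 7 (11.7%), against 7.80% and 5.03%. The YY1 letters AAGATGG were in 12 (20%), against 7.84% and 6.43%. The E-box CACGTG, read by Myc, was in 5 (8.33%), against 10.4% and 8.09%, and the T-box letters GTGTGA were also in 5 (8.33%), against 10.4% and 12.7%. In 0 of the 60 promoters did a match of one motif overlap a match of another. The ETS letters were in 2 of 6 promoters of genes called higher, 6 of 13 of genes called lower and 12 of 40 of genes not called. A match is a description of letters and not a bound site. Shown are the 120 bases before the RefSeq start of 5 called genes, 5′ to 3′ on the strand of the gene, to compare proximal promoters of genes that rose (Mrpl22 and Mrpl45) and fell (Mrpl3, Mrps26 and Mrpl36). Capitals mark the ETS, NRF1 or YY1 letters on either strand. All 5 genes are on the plus strand, and the windows are chr11:58171544-58171663 for Mrpl22, chr11:97315596-97315715 for Mrpl45, chr9:105053148-105053267 for Mrpl3, chr2:130563637-130563756 for Mrps26 and chr13:73330889-73331008 for Mrpl36.
Mrpl22: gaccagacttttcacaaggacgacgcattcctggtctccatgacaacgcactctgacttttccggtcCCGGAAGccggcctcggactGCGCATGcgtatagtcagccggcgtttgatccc
Mrpl45: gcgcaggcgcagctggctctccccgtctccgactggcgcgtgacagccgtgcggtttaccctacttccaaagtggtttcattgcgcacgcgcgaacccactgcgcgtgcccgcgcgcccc
Mrpl3: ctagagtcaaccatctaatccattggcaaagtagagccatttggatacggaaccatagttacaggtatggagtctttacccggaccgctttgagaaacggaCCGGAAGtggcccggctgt
Mrps26: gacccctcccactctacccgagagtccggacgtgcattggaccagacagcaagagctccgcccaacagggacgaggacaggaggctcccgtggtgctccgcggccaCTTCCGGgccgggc
Mrpl36: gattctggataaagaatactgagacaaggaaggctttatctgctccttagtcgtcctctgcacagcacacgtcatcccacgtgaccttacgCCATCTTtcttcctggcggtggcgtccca
Mrpl22 holds ETS and NRF1 letters, Mrpl3 and Mrps26 hold ETS letters, Mrpl36 holds YY1 letters, and none of the 5 motifs lies in the window of Mrpl45. Mrpl36 also holds the E-box, left in lower case. The start used for Mrpl36 lies 2496 bases from the GENCODE start of the gene. The 5 genes shown do not stand for all called genes. Among the falls, Mrpl20, Mrpl30, Mrpl40, Mrpl55 and Mrps2 held no ETS, NRF1 or YY1 letters in their windows. Among the rises, Mrpl14, Mrpl45, Mrps10 and Mrps15 held none.

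Mrpl20, a protein that binds large subunit ribosomal RNA early in assembly, had the largest fall. It lies on GRCm38 chromosome 4 at 155802878 to 155809975. Its level was 35.4 and 39.5 FPKM in WT and 21.8 and 24.96 FPKM in Tbx21-KO, and the groups did not overlap. The WT mean was 37.4 ± 2.88 FPKM and the Tbx21-KO mean 23.4 ± 2.21 FPKM (SD, n = 2 libraries each). The level in Tbx21-KO was 62.5% of that in WT, a change of -0.66 on the log2 scale (SE 0.09, limma adjusted p = 0.00326). It was the single gene called lower under every one of the 14 other fits, the T cell receptor scaling included (-0.22).

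The stalk of the large subunit, which recruits translation factors, is built on Mrpl10 with Mrpl12 bound to it. Mrpl10 was at 36.5 and 35.9 FPKM in WT, against 27.3 and 25.6 FPKM in Tbx21-KO. The groups did not overlap, and it fell by 0.44 on the log2 scale (SE 0.05, limma adjusted p = 0.00185), though its change was -0.0042 when rescaled to the T cell receptor list. Mrpl12 was at 20.3 and 22.6 FPKM in WT, against 18.1 and 19.7 FPKM in Tbx21-KO and was not called (-0.17, limma adjusted p = 0.0988). Of 4 proteins of the stalks, with Mrpl1 and Mrpl11, 1 was lower and none higher, with a median of -0.16 (0.26 rescaled). Over all genes tested, 23.0% were lower and 30.1% higher.

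The rim of the tunnel exit, where the new chain leaves the ribosome, held 2 of the 3 rises of the large subunit. Mrpl45, which anchors the ribosome to the inner membrane beside the exit, was at 17.97 and 17.93 FPKM in WT, against 23.9 and 24.0 FPKM in Tbx21-KO. The replicates lay much closer together than the groups, and it rose by 0.40 on the log2 scale (SE 0.04, limma adjusted p = 0.00128), under all 14 other fits as well. Mrpl22 was at 14.2 and 17.3 FPKM in WT, against 19.5 and 20.6 FPKM in Tbx21-KO. Its groups did not overlap (0.34, SE 0.10, limma adjusted p = 0.0399), but it lost its call in 6 of the 14 other fits, among them quantile normalization, median-of-ratios scaling and the fits without Tbx21-KO 1 or without Tbx21-KO 2. The 6 proteins of the exit (with Mrpl17, Mrpl23, Mrpl24 and Mrpl47) had 2 higher and none lower, beside 30.1% higher and 23.0% lower of all genes tested. Their median was 0.12 (0.52 rescaled), with a range of -0.12 to 0.40. These places in the ribosome were assigned from textbook structure with the values known, so the counts describe the groups and support nothing about place.

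Mrpl14, which lies on the face of the large subunit that meets the small subunit, had the largest rise. It was at 7.43 and 7.47 FPKM in WT, against 9.48 and 11.4 FPKM in Tbx21-KO, with the Tbx21-KO libraries spread farther apart than the WT pair. The log2 fold change was 0.43 (SE 0.09, limma adjusted p = 0.0149), and the call was lost in 1 of 14 other fits, the one over all genes without a minimum level. The ratio of Mrpl14 to Mrpl20 within a library, which no scaling changes, was 0.210 and 0.189 in WT and 0.434 and 0.457 in Tbx21-KO. This pair was chosen after its values were seen, as the largest rise and the largest fall.

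The central protuberance of the large subunit faces the head of the small subunit. Mrpl40, one of its mitochondria-specific proteins, was at 42.2 and 46.0 FPKM in WT, against 33.2 and 34.1 FPKM in Tbx21-KO. The groups did not overlap, and the fall was significant (-0.38, SE 0.05, limma adjusted p = 0.00435). The other 4 (Mrpl18, Mrpl38, Mrpl52 and Mrpl58) were not called. Mrpl58 is a peptidyl-tRNA hydrolase that releases stalled chains, and its values of 5.17 and 5.71 FPKM in WT and 5.98 and 5.43 FPKM in Tbx21-KO overlap.

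Around the peptidyl transferase centre, where peptide bonds form, 1 of 5 genes was lower and none higher (median -0.07, rescaled 0.36), beside 23.0% lower and 30.1% higher of all genes. The lower one was Mrpl3 (-0.28, SE 0.05, limma adjusted p = 0.0104), which was not called without Tbx21-KO 1. Mrpl2, Mrpl4, Mrpl16 and Mrpl27 were not called. Elsewhere in the large subunit, Mrpl21 was at 16.7 and 16.8 FPKM in WT, against 12.4 and 13.7 FPKM in Tbx21-KO, a fall of 0.35 on the log2 scale (limma adjusted p = 0.008). Mrpl55 was at 17.9 and 21.5 against 15.9 and 14.5 FPKM (-0.35, limma adjusted p = 0.0375). Its call was lost without WT 2, without Tbx21-KO 1 and without Tbx21-KO 2. Mrpl51 was at 11.7 and 12.8 FPKM in WT against 9.14 and 9.99 FPKM (-0.33, limma adjusted p = 0.0155) and was not called without Tbx21-KO 1. Mrpl36 (-0.29), Mrpl30 (-0.23) and Mrpl15 (-0.20) were also lower. Mrpl36 lost its call without Tbx21-KO 1, Mrpl30 without any of 3 libraries (WT 2, Tbx21-KO 1 or Tbx21-KO 2) and Mrpl15 without any of the 4.

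The level of the genes spanned a wide range. The highest in the large subunit was Mrpl54, at 44.9 and 57.7 FPKM in WT and 39.1 and 38.7 FPKM in Tbx21-KO, which was not called (-0.38, limma adjusted p = 0.0513). Its WT libraries lay farther apart than its Tbx21-KO libraries. Mrpl34, next to Mrpl40 among the highest, was at 40.8, 38.6, 38.5 and 43.5 FPKM in the same order, with groups that overlap. The lowest were Mrpl47, at 2.72, 2.73, 3.00 and 2.78 FPKM, and Mrpl33, at 0.776 and 0.752 FPKM in WT and 1.16 and 1.21 FPKM in Tbx21-KO, which missed the minimum level and was not tested. Mrpl33 has 7326 bases of annotated exon, so 142 and 133 reads in WT and 199 and 213 in Tbx21-KO lie behind those values. Across the 68 genes the level fell with annotated exon length (Spearman rho = -0.69), against -0.01 across all genes. Reads per gene and library ran from 76 to 2043. The fold change had little relation to exon length (rho = 0.04) and a weak negative one to level (rho = -0.25, all genes -0.21). These correlations run across genes of the same 4 libraries, and genes are not independent replicates.

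**Figure D3:**
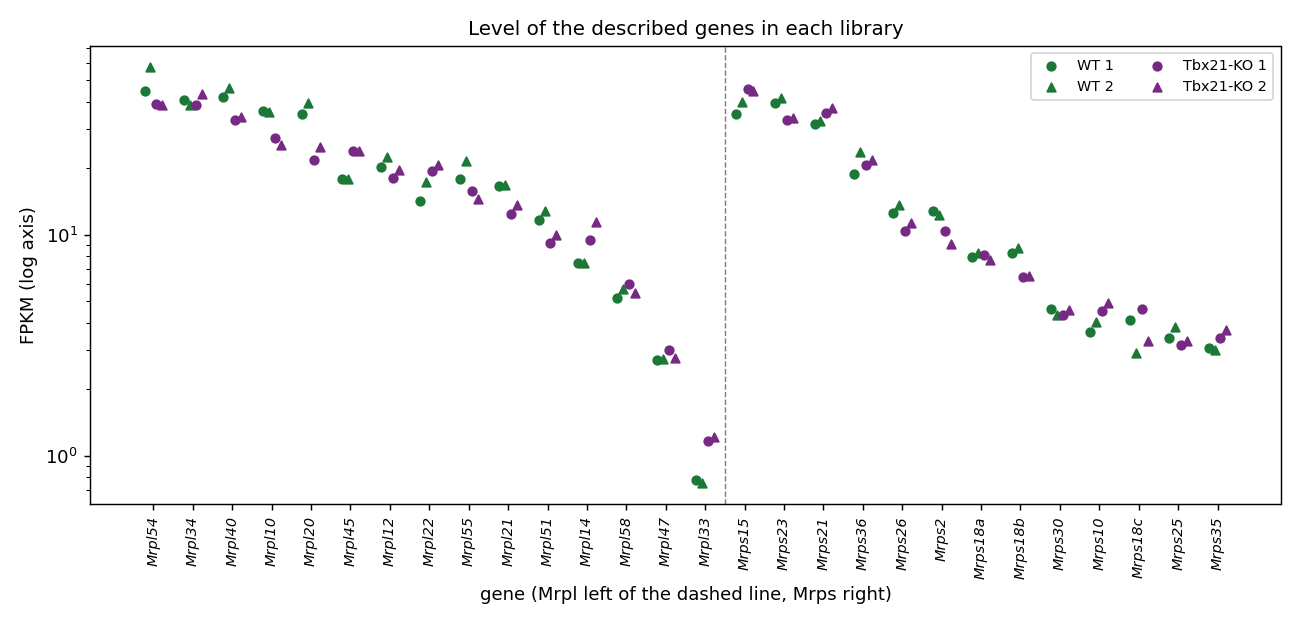
FPKM in each of the 4 libraries (y axis, log scale) for the described genes, Mrpl left and Mrps right of the dashed line, each ordered by mean level, with circles for replicate 1, triangles for replicate 2, green for WT and purple for Tbx21-KO. Mrpl20 shows the widest gap downward, 35.4 and 39.5 against 21.8 and 24.96 FPKM, and in Mrps18c both replicates 1 lie above both replicates 2.

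In the small subunit, proteins of the body and platform included 2 rises and no fall among 7 genes (median 0.13, rescaled 0.48). Over all genes tested, 30.1% were higher and 23.0% lower. Mrps15 was at 35.1 and 39.8 FPKM in WT, against 45.6 and 45.0 FPKM in Tbx21-KO (0.27, SE 0.07, limma adjusted p = 0.026). Mrps21 was at 31.8 and 32.8 against 35.7 and 37.3 FPKM (0.17, limma adjusted p = 0.0266). The groups did not overlap in either, but neither was called without Tbx21-KO 1 or without Tbx21-KO 2, and Mrps21 also not without WT 1 or with median-of-ratios scaling. In the head, which swivels as tRNAs pass, Mrps10 was at 3.63 and 4.02 FPKM in WT, against 4.51 and 4.90 FPKM in Tbx21-KO (0.24, limma adjusted p = 0.0498), and it lost its call without any 1 of the 4 libraries, with quantile normalization and with median-of-ratios scaling. Mrps7, Mrps9 and Mrps14 of the head and Mrps5 and Mrps24 of the mRNA entry were not called.

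The falls of the small subunit were in Mrps2, Mrps18b, Mrps23 and Mrps26. Mrps2, a protein with a bacterial counterpart, was at 12.8 and 12.4 FPKM in WT, against 10.4 and 9.04 FPKM in Tbx21-KO (-0.35, limma adjusted p = 0.0161), not called without Tbx21-KO 2. Mrps23, a mitochondria-specific protein and among the 3 highest Mrps genes with Mrps15 and Mrps21, was at 39.6 and 41.6 against 33.1 and 33.7 FPKM (-0.27, limma adjusted p = 0.00571). Mrps26, also mitochondria-specific, was at 12.6 and 13.7 against 10.4 and 11.3 FPKM (-0.26, limma adjusted p = 0.0275), and lost its call without WT 2, Tbx21-KO 1 or Tbx21-KO 2. All 4 turned positive when rescaled to the T cell receptor list, Mrps23 to a called 0.17. Among the falls of the large subunit, Mrpl30 (0.20) and Mrpl15 (0.19) were also called higher under that scaling. Genes assigned here to bacterial families had 5 higher (11.6%) and 9 lower (20.9%) of 43 tested (median -0.06). The genes not so assigned had 1 higher (4%) and 5 lower (20%) of 25 (median -0.08). Over all genes tested, 30.1% were higher and 23.0% lower.

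Mammals carry 3 copies of the bacterial S18 protein, which structures place at different sites of the ribosome. Mrps18b was at 8.28 and 8.69 FPKM in WT, against 6.42 and 6.51 FPKM in Tbx21-KO. The fall was -0.35 (limma adjusted p = 0.0053), though 30.5% of its exon bases overlap the antisense gene Gm16279. Mrps18a was at 7.92, 8.28, 8.09 and 7.66 FPKM in WT 1, WT 2, Tbx21-KO 1 and Tbx21-KO 2. Mrps18c was at 4.13, 2.93, 4.62 and 3.29 FPKM, with replicates farther apart than the groups. Neither was called, and the differences between the copies were not tested.

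Mrps30, a large subunit protein despite its symbol, stayed between 4.33 and 4.61 FPKM in the 4 libraries (-0.01). Mrps36 was at 18.8 and 23.6 FPKM in WT, against 20.7 and 21.8 FPKM in Tbx21-KO (0.01), with Tbx21-KO inside the WT spread. The lowest Mrps genes were Mrps35, at 3.08, 3.02, 3.42 and 3.72 FPKM, and Mrps25, at 3.41, 3.81, 3.16 and 3.32 FPKM, neither called. Of Mrps25, 69.8% of exon bases overlap Nr2c2, and overlaps above 25% also affect Mrps34 (77.8%), Mrpl19 (36.0%) and Mrpl24 (26.3%). No source used here says whether reads were counted by strand, and the reads of such pairs cannot be told apart. The 41 tested genes with no exon overlap had 5 higher (12.2%) and 7 lower (17.1%) and a median of -0.03, beside 30.1% higher and 23.0% lower of all genes.

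In all, 48 genes were not called, and their changes ran from -0.38 to 0.19 in the 27 Mrpl genes and from -0.21 to 0.22 in the 21 Mrps genes. Beyond those named above they are Mrpl13, Mrpl32, Mrpl35, Mrpl37, Mrpl39, Mrpl42, Mrpl44, Mrpl49 and Mrpl57, and Mrps6, Mrps11, Mrps16, Mrps17, Mrps22, Mrps27, Mrps28, Mrps31 and Mrps33. A p that misses the threshold does not show that a gene stayed the same. Replicates bound the precision: the median distance between the libraries of a group was 0.08 (WT) and 0.07 (Tbx21-KO) in these genes on the log2 scale, beside a median change of 0.14 regardless of sign. WT 2 lay above WT 1 in 52 of the 68 genes (76.5%), against 46.9% of all genes. The median of WT 2 minus WT 1 was 0.06 in these genes and -0.01 in all genes. For Tbx21-KO 2 minus Tbx21-KO 1 it was 0.04 and -0.01.

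Of the ribosomal proteins with other symbols, 1 of 5 was called. Dap3, the GTP-binding protein of the small subunit head, was at 5.87 and 6.39 FPKM in WT, against 9.88 and 10.3 FPKM in Tbx21-KO. It rose to 164% of the WT mean (0.64, SE 0.06, limma adjusted p = 0.0012), more than any Mrpl or Mrps gene, and was called in each other fit. The other 4 (Ptcd3, Chchd1, Aurkaip1 and Gadd45gip1) had log2 fold changes of -0.01 to 0.09.

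The ribosomal RNAs of the same ribosome were both higher. The small subunit RNA mt-Rnr1 was at 369 and 384 FPKM in WT, against 760 and 822 FPKM in Tbx21-KO (1.07, SE 0.06, limma adjusted p = 0.000198). The large subunit RNA mt-Rnr2 was at 571 and 563 FPKM in WT, against 809 and 867 FPKM in Tbx21-KO (0.56, SE 0.05, limma adjusted p = 0.00102). Both rose in every fit run. The rise of mt-Rnr1 was larger than any change of a ribosomal protein gene, and that of mt-Rnr2 was smaller than the change of Mrpl20 or Dap3. Of the 12 mitochondrially encoded mRNAs tested, which this ribosome translates, 6 were lower, none was higher and 6 were not called (median -0.38). The largest falls were in mt-Cytb (-0.87), mt-Nd4 (-0.50) and mt-Nd5 (-0.49), but rescaled to the T cell receptor list 3 mRNAs were called higher and only mt-Cytb lower (-0.42), with a median of 0.07. The libraries were made with a kit for mRNA, nuclear copies of mitochondrial sequence can share these reads, and the RNAs overlap on both strands, so these levels are uncertain. The myeloid marker sums moved in the same libraries, and their part was not tested.

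Other genes of mitochondrial translation were called in both directions, beside 30.1% higher and 23.0% lower of all genes tested. Of 25 assembly factors, 4 were higher and 8 lower (median -0.04). The falls were led by C1qbp (-0.61), a matrix protein needed for translation, Fastkd2 (-0.53), which binds the large ribosomal RNA, and Tfb1m (-0.33), which methylates the small one. The rises were led by Rbfa (0.66), which matures the small subunit, Mrm2 (0.46), a methyltransferase of the large ribosomal RNA, and Rpusd4 (0.25), a pseudouridine synthase. Rbfa was at 29.7 and 28.4 FPKM in WT, against 45.4 and 47.7 FPKM in Tbx21-KO (limma adjusted p = 0.000455), whereas C1qbp was at 49.0 and 42.4 against 28.1 and 30.9 FPKM (limma adjusted p = 0.0042). Of 13 translation factors 1 was higher, Mtfmt (0.21), which formylates the initiator tRNA, and 1 lower, Lrpprc (-0.33), which stabilises mitochondrial mRNA, with a median of -0.02. Of 16 mitochondrial tRNA synthetase genes 4 were higher, among them Aars2 (0.58) and Fars2 (0.32), and 2 lower, Rars2 (-0.27) and Yars2 (-0.22), with a median of 0.04, and none of 3 amidotransferase subunits was called. Counts of higher and lower genes turned with the scaling. Quantile normalization gave 1 and 7 of the synthetases, 1 and 12 of the assembly factors and 0 and 5 of the translation factors. Of all genes tested, 22.1% were then higher and 34.5% lower. The T cell receptor scaling gave 10 and 0, 18 and 0, and 11 and 0, beside 72.0% higher and 5.06% lower of all genes.

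Of 8 genes that transcribe and replicate mitochondrial DNA, 2 were higher and 2 lower (median -0.13, and 1 and 4 with quantile normalization). The polymerase subunits Polg (0.80) and Polg2 (0.64) rose, and the transcription factors Tfb2m (-0.57) and Tfam (-0.26) fell. Of 8 regulators of mitochondrial biogenesis, 3 were lower, Gabpa (-0.37), Pprc1 (-0.31) and Nrf1 (-0.17), and 2 higher, Myc (0.24) and Esrra (0.23), with a median of -0.15 (1 and 5 with quantile normalization). Rescaled to the T cell receptor list, no gene of these lists other than mt-Cytb was called lower, against 5.06% of all genes tested. Leaving out 1 library ended the call of Esrra, Fars2, Mrm2, Mtfmt, Nrf1, Polg2, Pprc1, Rars2, Rpusd4, Tfam, Tfb1m, Yars2 and Aars2 in at least 1 case each. With the deposited values the SD of the log2 fold changes was 0.21 in the ribosomal protein genes, 0.16 in the translation factors and 0.29 in the assembly factors, as the plot of the lists shows.

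**Figure D4:**
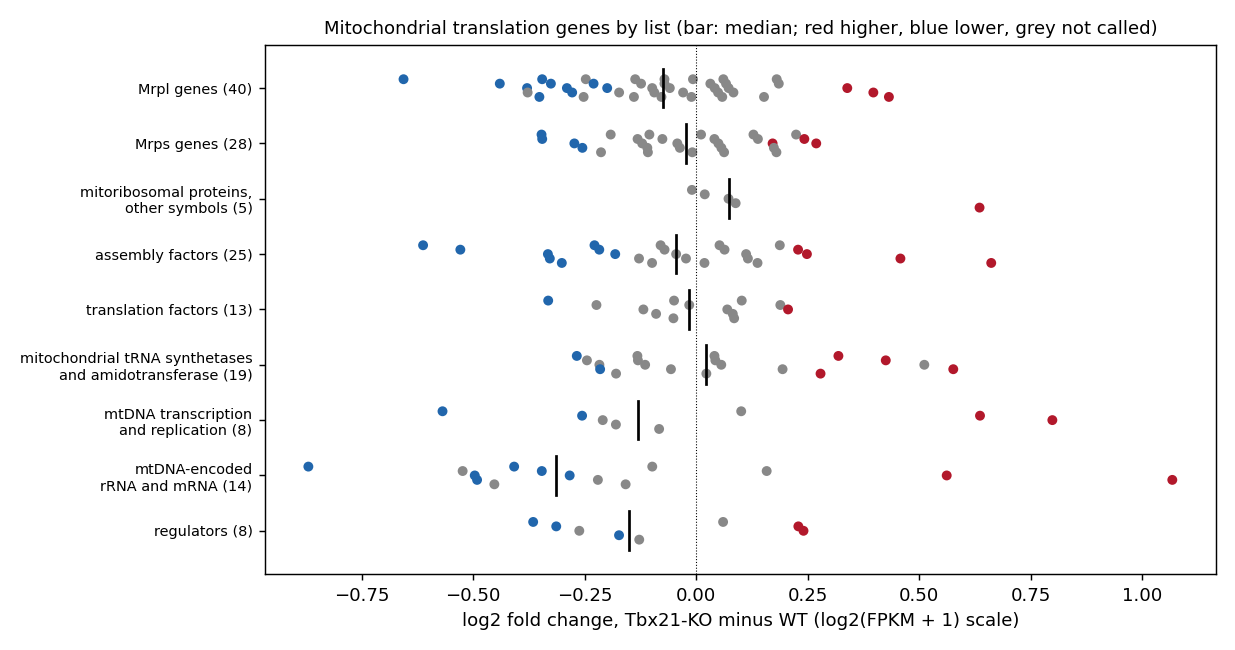
Log2 fold change, Tbx21-KO minus WT, of log2(FPKM + 1) (x axis) of each tested gene in 9 lists (rows, number tested in parentheses), with a bar at the median, and red for higher, blue for lower and grey for not called with the deposited values. The Mrpl and Mrps genes stay between -0.66 and 0.43, while mt-Rnr1 reaches 1.07 and mt-Cytb -0.87, and rescaled to the T cell receptor list the Mrpl and Mrps medians become 0.34 and 0.36.

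The genes are scattered over 17 chromosomes, with 11 of the 69 on chromosome 11, where Tbx21 also lies. A divergent neighbour, a gene starting on the other strand within 1000 bases, was present for 15 of 69 (21.7%), against 11.3% of protein-coding genes tested. The 15 genes with such a neighbour had no gene higher and 5 lower (Mrpl10, Mrpl30, Mrpl40, Mrpl51 and Mrps18b, 33.3%). The other 53 tested had 6 higher (11.3%) and 9 lower (17.0%). Over all genes tested, 30.1% were higher and 23.0% lower. The difference between genes with and without such a neighbour was not tested.

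Among the genes on chromosome 11, Mrpl10 (97041560 to 97049213) and Mrpl45 (97315716 to 97329920) flank Tbx21 (97098071 to 97115331), and they were singled out after their values were seen. Their 5′ ends lie 73.8 kb and 200.4 kb from that of Tbx21, on either side. Mrpl10 had the second largest fall and Mrpl45 the second largest rise of the ribosomal protein genes. The ratio of Mrpl45 to Mrpl10 within a library was 0.492 and 0.499 in WT and 0.875 and 0.939 in Tbx21-KO. Within 250 kb of Tbx21, without Tbx21 itself, 11 genes were tested, of which 4 were higher, 4 lower and 3 not called (72.7% called, against 53.1% of all genes). Mir8103, among the lower genes, lies inside Osbpl7, which was higher. Its call rests on 7 and 6 reads in WT and 1 and 3 in Tbx21-KO, over 107 exon bases. Neighbours moved in both directions: Tbkbp1 was at 3.44 and 3.15 FPKM in WT, against 9.76 and 9.09 FPKM in Tbx21-KO (1.28), and Kpnb1, an importin, at 85.1 and 82.2 against 62.4 and 61.8 FPKM (-0.42, and 0.02 rescaled to the T cell receptor list). The sources used here do not describe the knockout allele, so effects of the allele on neighbouring genes and of the loss of T-bet cannot be told apart.

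**Figure D5:**
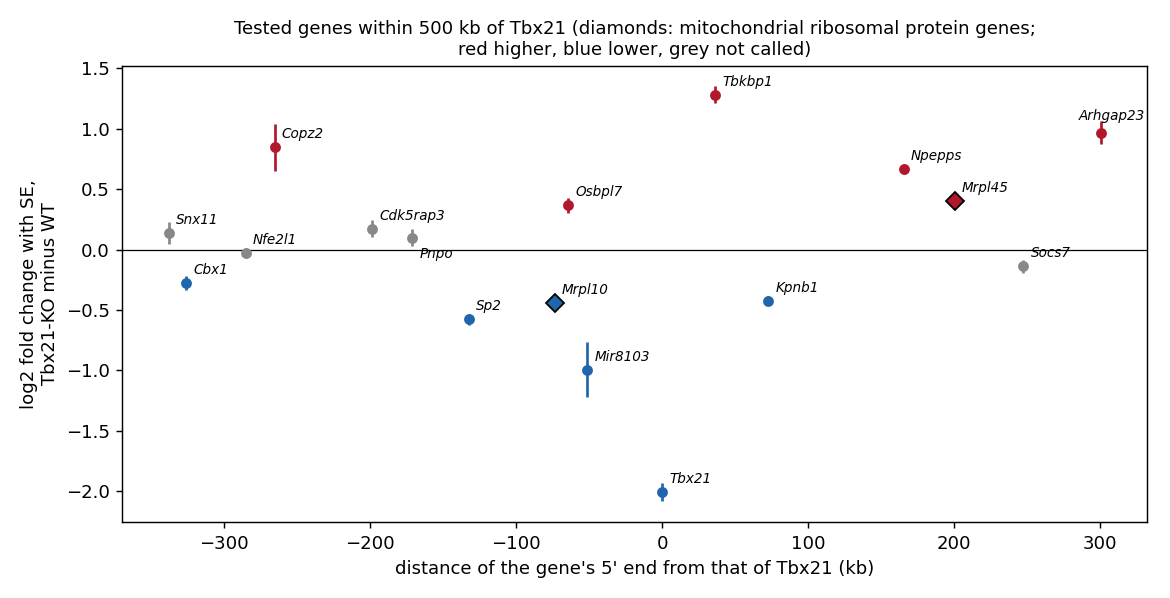
Log2 fold change with its standard error (y axis), Tbx21-KO minus WT for log2(FPKM + 1), of Tbx21 and the 16 tested genes within 500 kb, by distance of the 5′ end from that of Tbx21 (x axis, kb), with red for higher, blue for lower and grey for not called. Diamonds are Mrpl10, called lower with the deposited values at -0.44 (-0.0042 rescaled to the T cell receptor list), and Mrpl45, higher at 0.40, among 6 neighbours higher, 5 lower and 5 not called.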

How the data were processed

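The authors deposited 1 table of FPKM values (fragments scaled to exon length and depth) for 4 libraries. Column-purified RNA went into libraries of an mRNA kit, per the labels' protocols. The submitters' processing notes name GRCm38 and mm10. No source used here gives the aligner, the counter or the strand setting. Of 24769 rows, 1 is incomplete and was dropped. GENCODE M21 matched 24720 of 24768 IDs. With GENCODE exon lengths, 96.8% to 97.3% of low values (under 20 reads) were whole reads within 0.1.

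Genes whose mean FPKM reached 1 were tested as log2(FPKM + 1), a pseudocount of 1, with limma 3.58.1 in R 4.3.3 (2 groups of 2 libraries, intensity trend, Benjamini-Hochberg over all 11013 genes). The fit was tested on simulated data. Alternatives changed the pseudocount, minimum level, variance trend, scaling and replicates, used voom on estimated reads, or dropped members with exon overlap. Named genes are the 6 largest called, non-overlapping rises and falls per subunit, the highest 3 and lowest 2 by level, and fixed cases of structural interest, and in each other list the largest 3 rises and falls, of which some are not reported here. The members, lists and rule were chosen with earlier results of these data known. The genes assigned to ribosomal places were grouped after the values were seen.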

Additional observations from a re-analysis of the deposited data

How the results depend on the processing

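Of the 20 called genes, 8 kept their call in all 4 fits that left out a library, and 2 (Mrpl20 and Mrpl45) were called in all 14 other fits. Counts are given as higher and lower. Without a minimum level, the members were 2 and 8, Mrpl 1 and 6, and Mrps 1 and 2, with 41.5% of the 11013 genes called. With median-of-ratios scaling 3 members and 1 Mrps gene were higher, against 27.4% of all genes, and the medians were -0.12 (Mrpl) and -0.0604 (Mrps). Quantile normalization gave 29 lower members (16 Mrpl, 13 Mrps), with 34.5% of all genes lower. It gave medians of -0.14 and -0.14, a difference of 0.00818, and -0.22 for Mrpl47. Scaling to the T cell receptor list gave 53 and 1 members, 29 and 1 Mrpl, 24 and 0 Mrps, medians of 0.34 and 0.36 and a difference of 0.0228. It turned these genes positive: Mrpl3 0.13, Mrpl12 0.26, Mrpl15 0.19, Mrpl21 0.0763, Mrpl30 0.20, Mrpl36 0.14, Mrpl40 0.0596, Mrpl51 0.0863, Mrpl55 0.074, Mrps2 0.066, Mrps18a 0.36, Mrps18b 0.0514, Mrps23 0.17, Mrps25 0.23, Mrps26 0.16, Mrps30 0.36, Ptcd3 0.39, Gabpa 0.05996, Kpnb1 0.0208, Lrpprc 0.0732, Nrf1 0.21, Pprc1 0.10, Rars2 0.14, Socs7 0.24, Tfam 0.16, Tfb1m 0.0488 and Yars2 0.16. Members without exon overlap had 7 lower (5 Mrpl, 2 Mrps), or 17.1% against 23.0% of all genes. Their Mrps median was 0.041 and the difference 0.11. By place, the small subunit median was 0.0193 and the difference 0.0903. Genes at 5 FPKM or more gave an Mrps median of -0.0422. Leaving out 1 library gave 2 to 6 higher and 7 to 17 lower members, 4 to 13 lower Mrpl, 0 to 3 higher Mrps, medians of -0.11 to -0.0419 (Mrpl) and -0.0603 to -0.0248 (Mrps), and differences of 0.0171 to 0.0627. Fewer of all genes tested were then called too. In such fits a lone library is assumed to vary like the other group. Same-numbered libraries did not deviate together across all genes tested (r = -0.02). With 2 libraries a group this is a single value that cannot show whether libraries were paired, and the labels state no pairing. A replicate block gave 8 higher and 18 lower members, with 52.0% of all genes called. Of the 20 called genes Mrpl55 alone was not called with the block. The cause of these shifts was not tested. Changes of these genes under about 0.08, the median distance between the WT libraries, were not resolved with 2 libraries a group. Larger changes were not always resolved either: Mrpl54 at -0.38 (SE 0.12) and Mrps34 at 0.22 (SE 0.07) were not called.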
